A study of Mus musculus with 6 samples.

Results

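In mouse embryonic stem cells (mESCs), 768 promoter fragments had many partners in Hi-C and yet not 1 promoter-anchored interaction that both HiCap replicates listed. They were chosen among the 5069 promoter fragments for which the Hi-C list held 5 or more different distal fragments, here called Hi-C-rich, and a pair was taken as called when the same promoter fragment and the same distal fragment stood in the list of each HiCap replicate. The uncalled promoters thus made up 15.2% of the Hi-C-rich promoters, whereas 84.8% (4301) had a called pair. Among all 23091 promoter fragments of the Hi-C list, 57.3% had a called pair and 42.7% had none. The members were chosen by these lists themselves, so the numbers of fragments in the lists are given as a description and no test was made.

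HiCap joins Hi-C with the 4-cutter enzyme MboI to sequence capture of promoters, and it was carried out in 2 replicates of 1 line of mESCs, R1, with no treated group. Hi-C with the same enzyme was carried out in the same line without capture, and its list pools 2 replicates. The lists give positions on the mm9 build and no read numbers, so the depth behind an interaction is unknown here. A promoter is seen only through its listed interactions and which fragments the probes covered was not examined here.

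Chromatin folds bring promoters close to other segments of the same chromosome, and ligation of cut ends that lie together in the nucleus records such contacts. Hi-C samples all ligation products, so few reads fall on any promoter, while capture with probes keeps the products that hold a chosen promoter. Many promoters of widely used genes lie in CpG islands, which are rich in G+C and in CpG dinucleotides, whereas promoters of tissue-restricted genes often do not.

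The uncalled promoters named 713 genes and took part in 5255 distinct Hi-C pairs with 5034 distal fragments, of which 216 were listed for 2 or more of these promoters. For 49 genes, 2 or more fragments were uncalled. An annotated transcription start lay within 95.7% of the uncalled promoter fragments and within 96.0% of the called ones, so a start was about as frequent in both sets. By the annotation of mm9, 624 of the 768 fragments were named for a protein-coding gene, or 81.2% against 88.9% of the called promoters. A name that was not matched was carried by 120 (15.6%), against 7.88% of the called promoters.

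Some of the fragments were very short: 6.77% of the uncalled and 4.98% of the called promoters were under 150 bp. Of the 185 uncalled fragments of up to 300 bases with both sites, 101 overlapped no annotated untranslated region, and 4 of them with 11 or more Hi-C partners are shown (the first in order, with Nf2 tied with others at 11) on the plus strand of mm9, with the MboI sites at both ends in capitals, since these sites bound the stretch that a probe could target. They belonged to RP23-417K16.1, to Polg2 (the accessory subunit of the mitochondrial DNA polymerase), to Myh10 (a heavy chain of nonmuscle myosin) and to Nf2 (the tumour suppressor merlin).
RP23-417K16.1, chr11:33595763-33595982: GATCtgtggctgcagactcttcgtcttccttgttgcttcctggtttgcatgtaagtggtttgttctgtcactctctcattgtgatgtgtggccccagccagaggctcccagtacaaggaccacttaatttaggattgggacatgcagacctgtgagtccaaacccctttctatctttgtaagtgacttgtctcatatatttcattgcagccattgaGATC
Polg2, chr11:106635116-106635169: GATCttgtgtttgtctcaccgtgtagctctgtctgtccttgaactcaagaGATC
Myh10, chr11:68596915-68596950: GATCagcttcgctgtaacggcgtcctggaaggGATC
Nf2, chr11:4685015-4685177: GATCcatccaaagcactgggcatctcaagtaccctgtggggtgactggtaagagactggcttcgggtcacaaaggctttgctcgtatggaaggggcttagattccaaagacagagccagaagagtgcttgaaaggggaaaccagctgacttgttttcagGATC
With both sites, the Myh10 fragment held 36 bases and the Polg2 fragment 54. Both had many partners: 12 distal fragments of Myh10 and 13 of Polg2 were listed in Hi-C.

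Most of the uncalled promoters were listed in HiCap, but with few partners. Of the 768, 526 (68.5%) stood in both replicate lists with no distal fragment in common, 182 (23.7%) in replicate 1 only, 33 (4.30%) in replicate 2 only and 27 (3.52%) in neither. Replicate 1 thus left out 7.81% of them (95% exact interval 6.01 to 9.94%) and replicate 2 left out 27.2% (24.1 to 30.5%), which are 60 promoters for replicate 1 and 209 for replicate 2. Over the whole Hi-C list, replicate 1 held 88.4% and replicate 2 held 79.4% of the promoters. These intervals cover counting error only, and fragments of 1 gene are not independent. None of the 768 was in the combined list of the authors, which held 93.3% of the called ones. The authors required support in both replicates for an interaction, so this absence was largely set by the rule.

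The uncalled promoters had a median of 4 distal fragments in replicate 1 (quartiles 2 and 7, highest 48), against 35 for the called promoters (quartiles 17 and 63). In replicate 2 the median was 1 for the uncalled promoters (quartiles 0 and 3, highest 56) and 40 for the called ones (quartiles 14 and 78). In Hi-C the difference was small, with medians of 6 distal fragments for the uncalled and 7 for the called promoters. The balance between the replicates also differed: 69.5% of the uncalled promoters had more distal fragments in replicate 1 and 21.2% had more in replicate 2, against 43.7% and 54.4% of the called promoters. Replicate 1 nevertheless held the fewer pairs in all, 499746 against 553977 in replicate 2. The contrast in balance was partly set by the rule. The 182 promoters in replicate 1 only and the 33 in replicate 2 only could not be called.

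**Figure D1:**
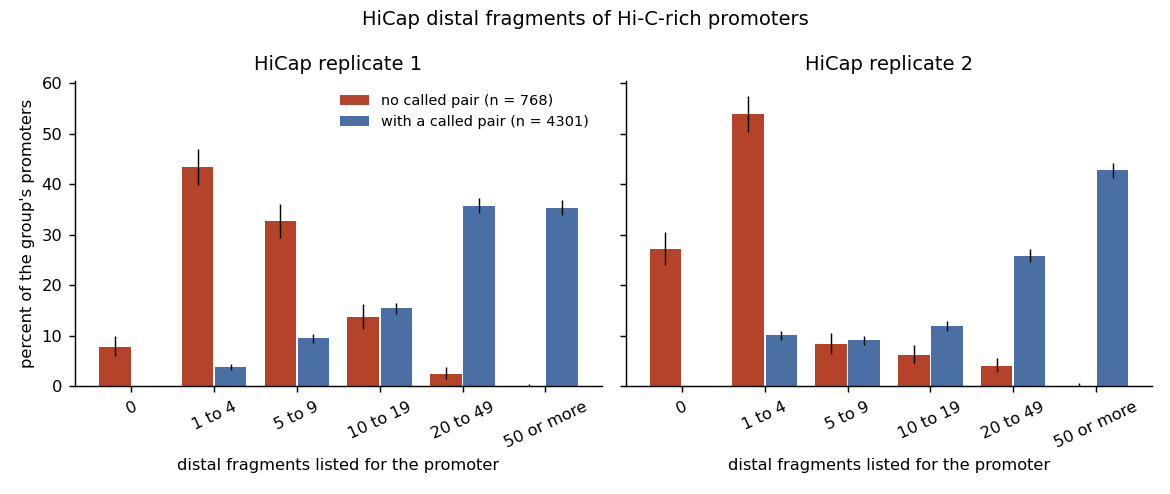
Percent of promoters (vertical axis) by the number of distal fragments in each HiCap replicate list (horizontal axis), for the 768 Hi-C-rich promoters without a called pair (red) and the 4301 with one (blue); bars are shares and lines exact 95% intervals. In replicate 2, 54.0% of the uncalled promoters had 1 to 4 distal fragments, against 10.1% of the called ones.

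Few Hi-C pairs of the uncalled promoters were listed in even 1 HiCap replicate. The rule favours promoters with few or no HiCap partners, so low shares were partly set by it. Replicate 1 held 478 of the 5255 pairs (9.10%) and replicate 2 held 96 (1.83%), against 46.7% and 34.6% of the Hi-C pairs of the called promoters and 32.9% and 22.3% of all Hi-C pairs. For 51.6% of the uncalled promoters no Hi-C pair stood in either HiCap list, against 6.23% of the called promoters. Where an uncalled promoter was in both HiCap lists, the closest fragments of the replicates were a median of 6288 bp apart. They adjoined or overlapped for 98 of the 526 promoters (18.6%) and lay within 1 kb of each other for 169 (32.1%).

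A pair of fragments on chromosome 11 stood far apart from the rest. RP23-191E3.1 (chr11:3042017-3043075) had 133 Hi-C partners and RP23-191E3.18 (chr11:3094061-3094594) had 128, whereas the next uncalled promoter had 25 and the highest called one had 61. Neither fragment was in either HiCap list. They shared 122 of their distal fragments, all partners lay within 81707 bp, and joining of adjoining fragments left 12 runs for RP23-191E3.1 and 18 for RP23-191E3.18. The partners therefore formed nearly unbroken stretches around the 2 promoters. Of the 133 partners of RP23-191E3.1, 93 lay in introns and 17 were called with another promoter. HiCap did list promoters on both sides: a fragment of Pisd-ps3, 18133 bp to the left of RP23-191E3.1, had 22 distal fragments in replicate 1, 39 in replicate 2 and 6 called pairs, but none in Hi-C. The first fragment of Eif4enif1 to the right had 8 in Hi-C, 32 in replicate 1, 35 in replicate 2 and 9 called pairs.

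Next in number was Lig3, which encodes DNA ligase III. Its fragment at chr11:82608982-82609247 (265 bp) had 25 distal fragments in Hi-C, 14 in replicate 1 and none in replicate 2, and 10 of the 25 were called with another promoter. Another Lig3 fragment 13952 bp away (1429 bp long) had 9 distal fragments in Hi-C, 118 in replicate 1 and 143 in replicate 2, with 42 called pairs. The Hi-C partners of the short fragment outnumbered those of the long one, and the order was the opposite in both HiCap lists. Of the other uncalled promoters high in Hi-C, Myo1g (a class I myosin of blood cells) had 15 distal fragments in Hi-C, 7 in replicate 1 and 1 in replicate 2. Tnip1, an inhibitor of NF-kappaB signalling, had 14 in Hi-C, 10 in replicate 1 and none in replicate 2. Pecam1, an adhesion molecule of endothelial cells, had 13 in Hi-C, 8 in replicate 1 and 1 in replicate 2. Across the 13 uncalled promoters with 13 or more Hi-C partners, the median was 7 in replicate 1 and 1 in replicate 2, against 59 and 86 for the 445 called promoters with as many partners.

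A second kind of uncalled promoter was long in 1 replicate list and short in the other. Rabgap1l, which encodes a GTPase-activating protein of Rab GTPases, had 5 distal fragments in Hi-C, 48 in replicate 1 and 5 in replicate 2. Trp53bp2, the p53-binding protein ASPP2, had 5 in Hi-C, 36 in replicate 1 and 2 in replicate 2. In contrast, Spink4, a Kazal-type peptidase inhibitor, had 5 in Hi-C, 9 in replicate 1 and 56 in replicate 2. The order of the replicates was thus turned round between these genes. Fryl had 5 in Hi-C, 2 in replicate 1 and 42 in replicate 2, and Scai had 5 in Hi-C, 11 in replicate 1 and 41 in replicate 2. Caln1, which encodes a calcium-binding protein of neurons, was high in both lists, with 27 distal fragments in replicate 1 and 37 in replicate 2, and no fragment was shared. The closest fragments of the replicates nevertheless adjoined or overlapped for Caln1, Rabgap1l, Trp53bp2, Spink4 and Scai. For Fryl they lay 3414 bp apart. Of the 768, 124 promoters had 10 or more distal fragments in replicate 1, 80 had so many in replicate 2, and 20 had them in both.

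**Figure D2:**
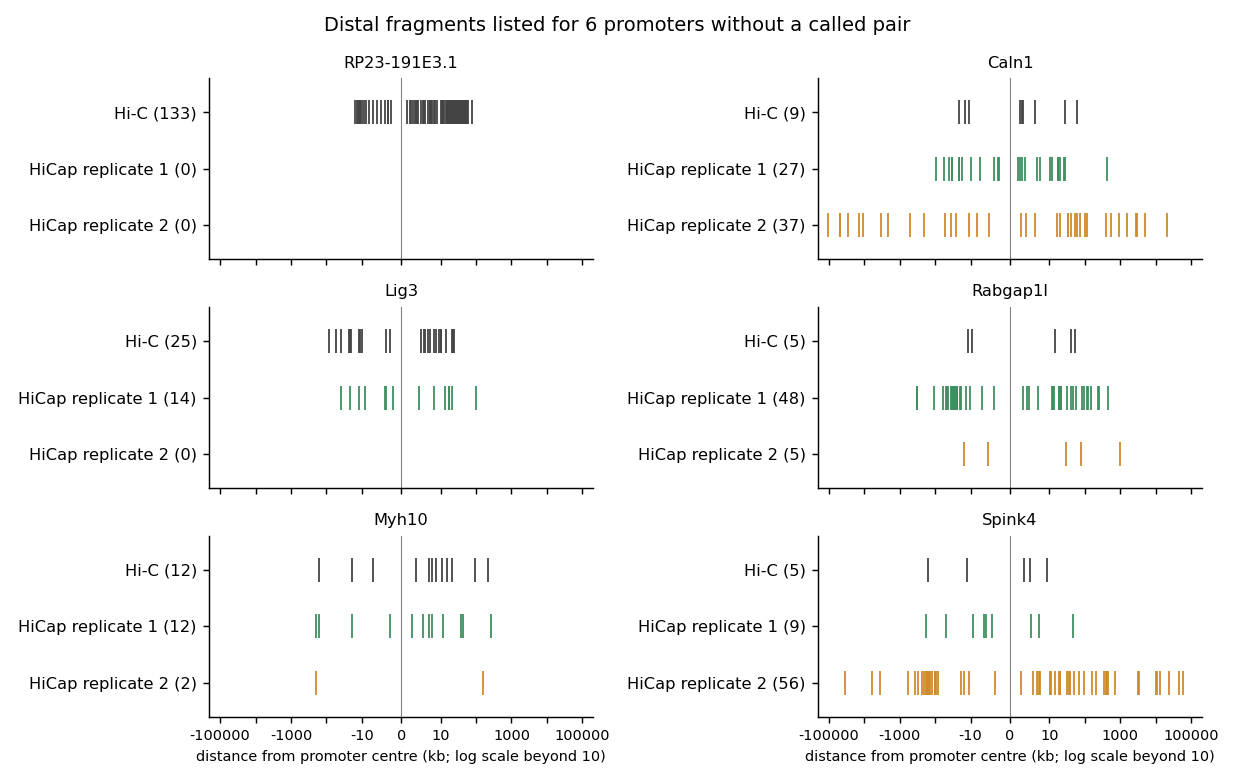
Distal fragments listed in Hi-C and in the HiCap replicates (rows, with their numbers) for 6 uncalled promoters, each drawn as a tick at its signed distance from the promoter centre in kb (log scale beyond 10 kb). RP23-191E3.1 had 133 ticks in Hi-C and none in HiCap, and of the 56 fragments of Spink4 in replicate 2, 11 lay over 1 Mb away. In the whole replicate 2 list, 19.4% of the pairs spanned more than 1 Mb.

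Uncalled promoter fragments were shorter than called ones. Their median length was 502 bp (95% interval 470 to 536 bp), against 699 bp (683 to 716 bp) in called promoters. Fragments under 300 bp made up 24.5% of the uncalled and 15.6% of the called promoters, and fragments of 1000 bp or more made up 15.4% and 28.0%. The share without a called pair was 19.5% under 150 bp, 23.0% from 150 to under 300 bp, 19.8% from 300 to under 600 bp, 12.6% from 600 to under 1000 bp, 9.98% from 1000 to under 1500 bp and 6.55% from 1500 bp, where all Hi-C-rich promoters gave 15.2%. It was thus highest from 150 to under 300 bp, with intervals that overlapped between the 3 shortest classes. The shortest uncalled fragments were those of A630072M18Rik (10 bp), RP23-336J1.6 (12 bp) and Ceacam16 (15 bp), a gene of the inner ear. Ceacam16 was not poor in partners, with 30 distal fragments in replicate 1 and 5 in replicate 2, and none of them was shared. The closest fragments of the replicates lay 67 bp apart.

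The uncalled fragments also held less G+C. Their median G+C content was 52.0% (51.3 to 52.6%), against 56.4% (56.1 to 56.7%) in called promoters, and the ratio of observed to expected CpG dinucleotides was 0.277 against 0.550. Of the 116 Hi-C-rich promoters with under 40% G+C, 48 (41.4%) had no called pair. The share was 34.2% at 40 to 45%, 21.5% at 45 to 50%, 15.4% at 50 to 55%, 11.8% at 55 to 60% and 8.87% from 60% G+C. The classes followed 1 order from the lowest to the highest G+C content. Fragments with an end whose 31 outermost bases occur elsewhere in the genome were 6.77% of the uncalled and 4.95% of the called promoters, and the intervals overlapped (5.10 to 8.78% and 4.32 to 5.64%).

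**Figure D3:**
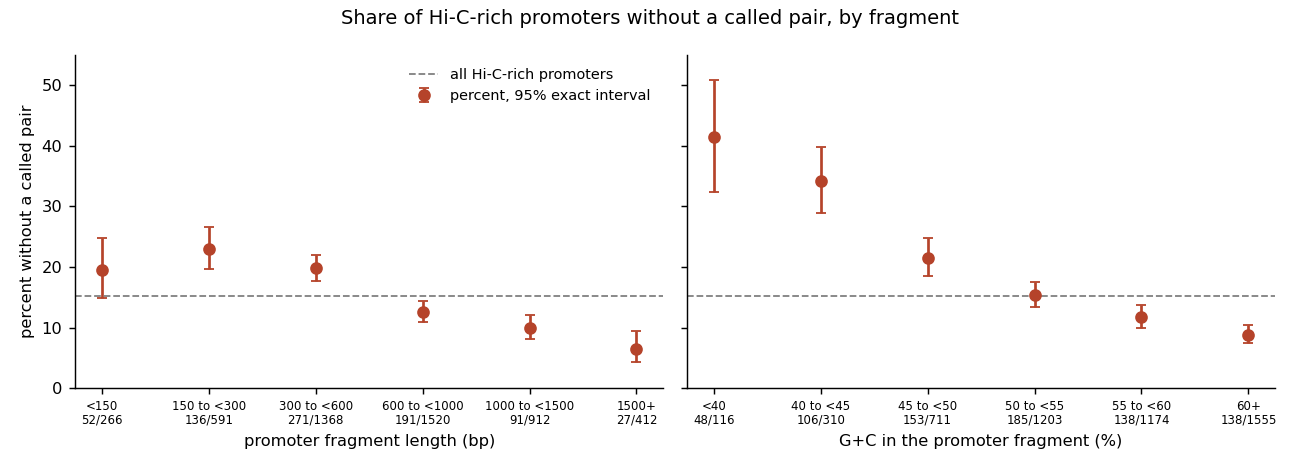
Percent of Hi-C-rich promoters without a called pair (vertical axis) by promoter fragment length in bp (left) and by G+C content in percent (right); points are shares, lines exact 95% intervals, and the dashed line marks the 15.2% of all Hi-C-rich promoters. Below each class stands the number of uncalled over all Hi-C-rich promoters. The share was 41.4% under 40% G+C and 8.87% from 60% G+C.

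Both differences were present at matched numbers of Hi-C partners. Among promoters with 5 distal fragments in Hi-C, the median length was 544 bp in the 320 uncalled and 719 bp in the 1115 called promoters, and the median G+C content was 52.1% and 55.7%. Among those with 10 to 12, the lengths were 417 bp in the uncalled and 667.5 bp in the called promoters. They were also graded by the number of calls. Promoters with exactly 1 called pair (522) had a median length of 540.5 bp and 53.7% G+C, close to the uncalled ones, while those with 10 or more called pairs (1884) had a median of 806.5 bp and 56.9% G+C. The 522 promoters just outside the rule had a median of 7 distal fragments in replicate 1 and 4 in replicate 2. On the Hi-C side of the threshold, 320 uncalled promoters had exactly 5 distal fragments, and 580 of the 2030 promoters with 4 (28.6%) had no called pair. The uncalled share was 22.3% at 5 distal fragments, 17.4% at 6, 14.3% at 7 and 2.84% at 13 or more.

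The chromosomes differed widely. Chromosome 11 held 315 of the 768 uncalled promoters (41.0%), against 26.4% of the called ones, and 21.7% of its Hi-C-rich promoters were uncalled. The share was 27.0% on chromosome 4 and 22.1% on chromosome 2, against 4.92% on chromosome 7, 2.98% on chromosome 19 and 2.74% on chromosome 14. Without chromosome 11 it was 12.5% (11.5 to 13.6%). The lists themselves were uneven between chromosomes. Hi-C held 5.75 pairs per listed promoter on chromosome 11 and 5.00 on chromosome 8, against 1.43 to 3.34 on the others, and replicate 1 held 5.56 pairs per promoter on chromosome 4 against 19.6 on chromosome 11. Density and share did not follow 1 order: chromosome 8 had 12.6% uncalled, while chromosomes 4 and 2 held 2.53 and 2.46 Hi-C pairs per promoter. Replicate 2 held 42.4 pairs per promoter on chromosome 8, 36.6 on chromosome 11 and 14.4 on chromosome 4. The part of this density in the shares was not tested. On each of the 14 chromosomes with 10 or more uncalled promoters, the median fragment was shorter and lower in G+C in the uncalled than in the called promoters. On chromosome 11, 43.4% of the fragments under 600 bp with under 50% G+C were uncalled, against 9.79% of those of 600 bp or more with at least 50% G+C. On the other chromosomes these shares were 29.8% and 7.07%.

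**Figure D4:**
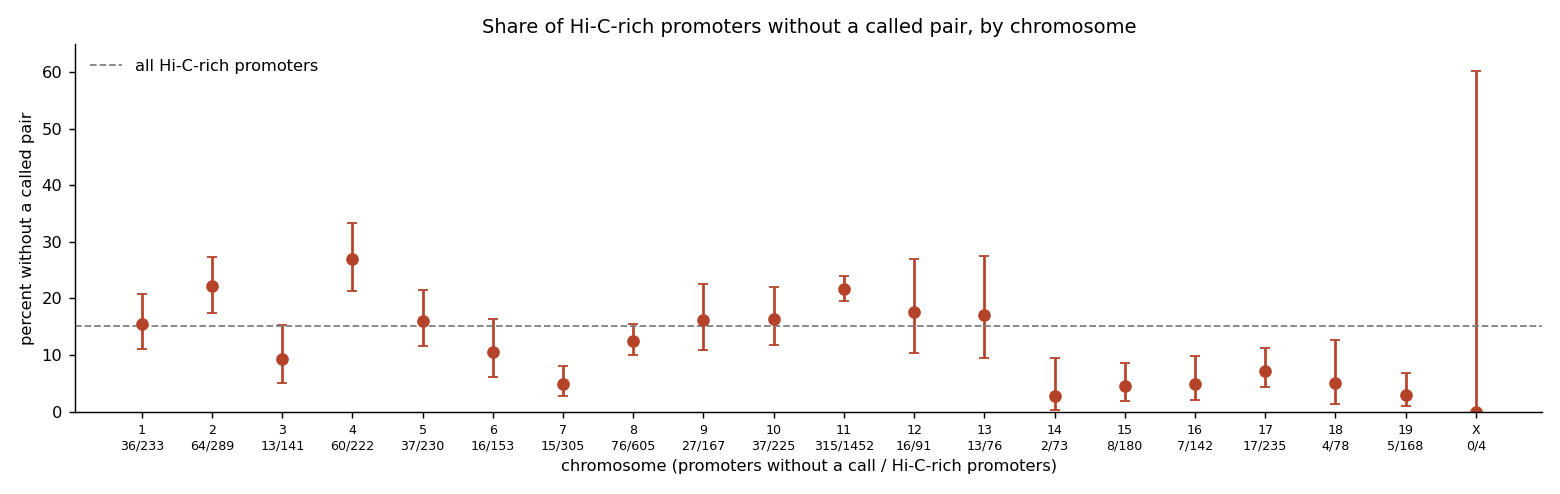
Percent of Hi-C-rich promoters without a called pair (vertical axis) on each chromosome (horizontal axis, with the number of uncalled over all Hi-C-rich promoters); points are shares, lines exact 95% intervals, and the dashed line marks the 15.2% of all. The share was 27.0% on chromosome 4 and 2.74% on chromosome 14, and chromosome X held only 4 Hi-C-rich promoters.

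In Hi-C, the partners of uncalled promoters lay as far away as those of called ones. The median distance was 10382 bp (95% interval 9996 to 10826 bp) for the 5255 pairs of uncalled promoters and 10293 bp (10124 to 10440 bp) for the 34133 pairs of called promoters. Pairs of 1 promoter are not independent, which these intervals leave out. Taken as a median of promoter medians, the distance was 10359 bp for uncalled and 10205 bp for called promoters. Their distal fragments were also alike in length, with medians of 584 bp and 595 bp. In HiCap, whose lists the rule used, the distances differed, and in opposite directions. The medians were taken over pairs, so promoters with many listed fragments weighed most. The pairs of uncalled promoters had a median distance of 12653 bp in replicate 1, against 23761 bp for called promoters, and of 124687 bp in replicate 2, against 84418 bp. Pairs over 1 Mb made up 21.7% of the replicate 2 pairs of uncalled promoters and 16.8% of those of called promoters. In replicate 1 these shares were 0.669% and 0.378%. Long pairs were a trait of the whole replicate 2 list, with 19.4% over 1 Mb and a median distance of 100867 bp. The whole replicate 1 list had 0.371% over 1 Mb and a median of 19770 bp. By position, 49.1% of the Hi-C partners of uncalled promoters lay in introns, 23.6% touched an exon and 27.3% were intergenic, against 37.5%, 27.0% and 35.5% for called promoters.

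**Figure D5:**
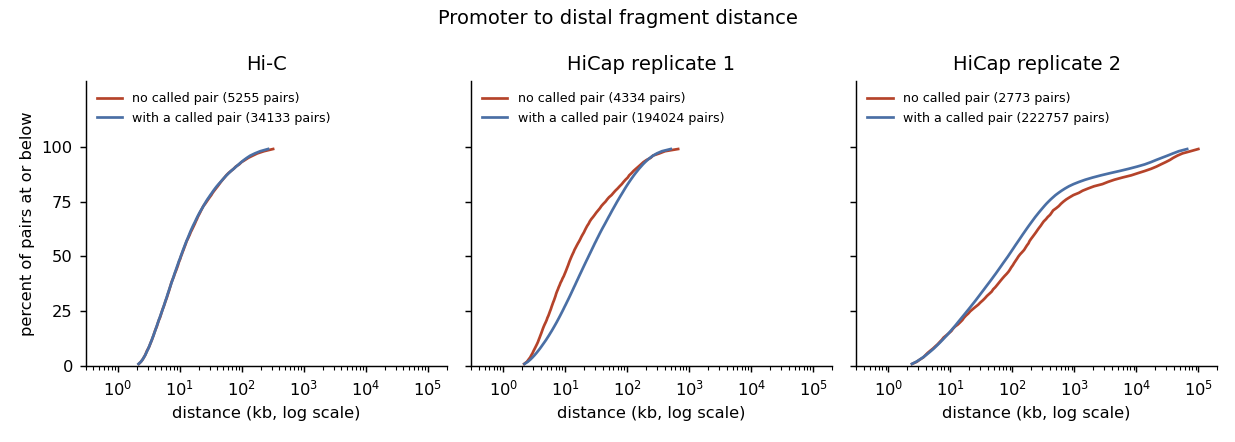
Percent of pairs (vertical axis) at or below a distance in kb (horizontal axis, log scale) in Hi-C and in each HiCap replicate, for uncalled (red) and called (blue) Hi-C-rich promoters. The curves run together in Hi-C (medians 10382 and 10293 bp). The pairs of uncalled promoters span less in replicate 1 (12653 and 23761 bp) and more in replicate 2 (124687 and 84418 bp). The rule used both HiCap lists.

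Only 16 Hi-C pairs of uncalled promoters spanned more than 1 Mb, and 11 of these belonged to 1 fragment. It was named for Mir138-2 and Tsnax and given from position 0 to 3000002 of chromosome 8, a span of 3000002 bp that holds the unsequenced chromosome end, and its Hi-C partners lay at least 95326242 bp away. These distances depend on the position given for the promoter and are not read as contacts. Of the other 5, 3 belonged to AC123856.2, whose longest pair spanned 2237632 bp and whose fragment has an end of 31 bases that occurs 9277 times in the genome. RP23-337P24.3 had a partner at 1359599 bp and Gtf3c5, a subunit of a general factor of RNA polymerase III, had one at 1069105 bp, with a fragment end that occurs 26570 times. The part of repeated ends in these pairs was not tested.

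Called promoters were fewer around the uncalled ones. The nearest other listed promoter was called for 43.9% of the uncalled promoters (40.3 to 47.5%), against 69.0% of the called ones (67.6 to 70.4%). The share depended on what counts as a call. With replicate 2 alone it was 67.9% in uncalled and 87.8% in called promoters, and with replicate 1 alone it was 81.7% (49 of 60) and 92.5%, so it stayed lower in the uncalled promoters. With genes as units it was 17.25%, over 1200 fragments of genes without a call. A nearest neighbour from the same gene is then uncalled by construction, and no share was taken for called genes. This value is therefore not comparable with the others. The nearest called promoter lay at a median of 23361 bp from uncalled and 13056 bp from called promoters, and it was within 10 kb for 24.0% and 40.7%. Neighbours without a call were thus more frequent at the uncalled promoters, although the nearest listed promoter of any kind was only slightly farther, at 11854 bp against 9689 bp. The Hi-C partners were shared less with called promoters: 755 of the 5255 (14.4%) were called with another promoter, against 28.9% of those of called promoters. Of these 755, 215 were called with another fragment of the same gene.

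Genes with several promoter fragments were frequent. More than 1 fragment was listed for the gene of 60.3% of the uncalled and 44.4% of the called promoters. Another fragment of the gene was called for 343 uncalled promoters, or 74.1% of those whose gene had more than 1 fragment, against 71.0% for called promoters. Over all uncalled promoters this was 44.7%, and the shares among genes with more than 1 fragment had overlapping intervals (69.8 to 78.0% and 68.9 to 73.0%). Nf2 had 3 uncalled fragments with 11, 7 and 5 Hi-C partners, and the fragment with 6 Hi-C partners had 2 called pairs. For Abr, 3 fragments with 11, 6 and 6 Hi-C partners were uncalled, while 3 others had 13, 4 and 7 called pairs. The genes with several uncalled fragments were picked after their values were seen.

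Top2a encodes DNA topoisomerase II alpha, which untangles DNA for chromosome segregation. Its 4 uncalled fragments had 6, 11, 6 and 5 Hi-C partners, with 5, 17, 3 and 13 distal fragments in replicate 1 and 8, 0, 5 and 20 in replicate 2. The only called fragment had 17 Hi-C partners and 1 called pair. Mapk14, the kinase p38 alpha, gave the shortest distance to a call: its uncalled fragment with 5 Hi-C partners, 4 distal fragments in replicate 1 and 4 in replicate 2 lay 737.5 bp from another Mapk14 fragment with 2 called pairs and no partner in Hi-C. At Hk1, which encodes hexokinase 1, no fragment was called. One uncalled fragment of Hk1 had 7 Hi-C partners and was in neither HiCap list, and the other had 5 Hi-C partners, 8 in replicate 1 and 7 in replicate 2.

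By gene family, uncalled promoters were frequent among chemosensory receptors and defensins. Of the 15 Hi-C-rich promoters of olfactory receptor genes, 11 had no called pair (73.3%, 44.9 to 92.2%), all 3 of vomeronasal (pheromone) receptor genes had none (29.2 to 100%), and so had all 3 of defensin genes (29.2 to 100%), which encode antimicrobial peptides. Over all Hi-C-rich promoters the share was 15.2%. The 11 of olfactory receptor genes had 0 to 7 distal fragments in replicate 1 and 0 to 3 in replicate 2, with a median G+C content of 47.0%. The 4 called ones had 5 to 19 and 2 to 62, with a median G+C content of 48.5%. Median lengths were 503 bp in the uncalled and 429.5 bp in the called promoters of this family. Olfr222 was highest in Hi-C, with 11 partners. The vomeronasal receptor gene Vmn1r235 had 12 partners in Hi-C, 18 in replicate 1 and none in replicate 2, and 33.1% G+C. Vmn2r80, with a fragment of 81 bp and 32.9% G+C, had 5 partners in Hi-C and 1 in replicate 1. The defensin gene Defb37 had 8 partners in Hi-C, 2 in replicate 1 and none in replicate 2, and the nearest called promoter, Xkr5, was 40060 bp away. Such families lie in tandem clusters of related copies, so promoters within a cluster share a neighbourhood. The 3 uncalled defensin promoters all lay on chromosome 8, whereas the 3 of vomeronasal receptor genes lay on chromosomes 10, 13 and 17.

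Promoters with a BAC-clone name also stood above the 15.2% of all Hi-C-rich promoters. Of 318 such promoters, 93 were uncalled (29.2%, 24.3 to 34.6%), with a median of 3 distal fragments in replicate 1 and 1 in replicate 2, against 21 and 19 in the called ones of the list. The uncalled promoters with an RP23 name given here lay on chromosomes 11 and 2, where 21.7% and 22.1% of all Hi-C-rich promoters were uncalled. The chromosomes of the whole list were not compared, so name and chromosome are not told apart. Predicted genes had 17 of 74 uncalled (23.0%, 14.0 to 34.2%) and RIKEN clones 40 of 347 (11.5%, 8.36 to 15.4%). Of 48 microRNA promoters, 9 were uncalled (18.8%, 8.95 to 32.6%), among them Mir1968 with 10 Hi-C partners and Mir218-2 with 6. The 9 include the fragment of Mir138-2 and Tsnax given from position 0 of chromosome 8. The intervals of predicted genes, RIKEN clones and microRNAs include 15.2%.

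None of the 37 Hi-C-rich promoters of cytosolic ribosomal protein genes was uncalled, which allows a share of up to 9.49% by the exact interval, and none of the 9 of pluripotency genes (up to 33.6%) or the 15 of potassium channel genes (up to 21.8%). Zinc finger genes had 5 of 83 (6.02%, 1.98 to 13.5%), of which Zfp410 had 24 distal fragments in replicate 1 and 3 in replicate 2. Of 94 promoters of solute carrier genes, 9 were uncalled (9.57%, 4.47 to 17.4%), with Slc22a21 highest at 10 Hi-C partners. Of 14 promoters of Hox genes 1 was uncalled (7.14%, 0.181 to 33.9%), and of 8 of Wnt ligands and Frizzled receptors 1 (12.5%, 0.316 to 52.7%), with intervals that include 15.2%. Hoxb1, a homeobox gene of the hindbrain, had 5 partners in Hi-C, 4 in replicate 1 and 3 in replicate 2, and Wnt3, a ligand required for gastrulation, had 7 in Hi-C, 4 in replicate 1 and none in replicate 2. The nearest called promoter to Wnt3 was that of Wnt9b, 24143 bp away with 2 called pairs. Among collagen genes 3 of 16 were uncalled (18.8%, 4.05 to 45.6%), among mitochondrial ribosomal protein genes 3 of 17 (17.6%, 3.799 to 43.4%), among glycolysis genes 2 of 12 (16.7%, 2.09 to 48.4%) and among serpin genes 2 of 7 (28.6%, 3.67 to 71.0%), all with intervals that include 15.2%. The collagen gene Col13a1, with 5 Hi-C partners, was in neither HiCap list. Col6a2 had 12 distal fragments in replicate 1 and 26 in replicate 2 without a shared one, although the closest adjoined or overlapped.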

How the data were processed

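Per the paper's methods, the authors aligned the ends of HiCap read pairs separately to mm9 with HiCUP and Bowtie 0.12.7 with iterative trimming, dropped reads with several positions, duplicates and pairs under 1 kb apart, and required a minimum of read pairs for an interaction. For the Hi-C list, the aligner and the minimum are not given in the sources used here. The deposited values are positions of promoter and distal fragments, with no normalization and no other measurement. Capture-C was not analysed here.

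Distinct pairs were counted per promoter fragment with Python 3.11.15, pandas 2.3.3 and scipy 1.17.1, distances were taken between fragment midpoints, and "called" meant identical fragments in both replicate lists. Shares carry exact Clopper-Pearson intervals and medians order-statistic intervals, both at 95%. G+C content includes the MboI sites at both ends. Of the Hi-C promoter fragment ends, 99.98% lay at an MboI site of the mm9 genome. Starts, exons and untranslated regions came from GENCODE vM1. Gene families were taken by symbol. The selection was tested on simulated data.

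The members and the gene lists were chosen with earlier results of these data known. Named genes were the members with the most Hi-C partners, the first of each family, and those at the extremes of replicate number, length and distance. The alternatives were other definitions of a call, each replicate alone, other Hi-C minimums, merged fragments, pairs over 15 kb and genes as units.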

Additional observations from a re-analysis of the deposited data

How the results depend on the processing

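The lists hold no read numbers, so the limits set by depth could not be measured. No paired analysis was possible because the Hi-C list pools its replicates and the results come from no test. With the replicates taken 1 at a time, 60 to 209 promoters were uncalled, or 1.18 to 4.12% of the Hi-C-rich ones, with median lengths of 465 to 583 bp, median Hi-C distances of 10942 to 15387 bp and the nearest listed promoter called for 67.9 to 81.7%. Of the 209 promoters absent from replicate 2, 12.9% were also absent from replicate 1, and of the 60 absent from replicate 1, 45% were absent from replicate 2. The shares of the left-out list itself are fixed by construction. When distal fragments within 1 kb counted as shared, 11.8% were uncalled, of which 10.0% were absent from replicate 1 and 34.9% from replicate 2, and the nearest promoter was called for 49.92%. With the combined list of the authors as calls, these were 20.9, 5.68 and 19.8%. At 3 or more Hi-C partners, 2549 promoters (24.8%) were uncalled, with 14.6 and 37.7% absent from replicates 1 and 2, a length of 571 bp, a distance of 9637 bp and the nearest promoter called for 38.1%. At 8 or more there were 169 (8.87%), with 3.55 and 21.3% absent, 444 bp and 11528 bp. Merging of adjoining fragments moved the distance to 10861 bp. Over 15 kb alone there were 67 (7.83%), with 16.4% absent from replicate 2, a distance of 39998 bp and the nearest promoter called for 52.2%. With genes as units 11.35% were uncalled, with 4.33 and 18.3% absent, 598.5 bp, 9938 bp and 17.25% for the nearest promoter, over all fragments of these genes. A nearest promoter of the same gene is here uncalled by construction. Leaving out chromosome 11, an alternative chosen after seeing the data, gave 453 promoters (12.5%), with 11.04% absent from replicate 1 and a distance of 9802 bp. Leaving out the fragment at position 0 and those with over 100 Hi-C partners, also chosen after seeing the data, left 765 promoters and moved no value beyond its interval. Of 75 values under these alternatives, 27 stayed within the interval, or 1.5 times the number, of the values given.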
